A study of Mus musculus with 4 samples.

Results

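The 5 genes described here encode the receptors through which mouse leukocytes bind the constant part of IgG, and the chain through which most of them signal. They were taken by symbol from the gene lists of the deposited files, where all 5 were found among 29835 joined genes. Fcgr1 encodes the high-affinity receptor FcγRI. Fcgr3 and Fcgr4 encode the lower-affinity activating receptors FcγRIII and FcγRIV. Fcer1g encodes the common gamma chain, which carries the tyrosine-based activation motif (ITAM) for these 3 receptors. Fcgr2b encodes FcγRIIb, which carries an inhibitory motif in its own tail.

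When IgG-coated particles or cells cluster the activating receptors, Src-family kinases phosphorylate the ITAM, the kinase Syk is recruited, and uptake, killing and cytokine release can follow. FcγRIIb opposes this through the phosphatase SHIP-1, which is encoded by Inpp5d. Macrophages and monocytes are known to carry activating and inhibitory receptors together, mouse NK cells mainly FcγRIII, B cells FcγRIIb, and neutrophils FcγRIII and FcγRIV. The gamma chain also serves receptors outside this family, among them the NK receptor encoded by Ncr1.

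Ascites cells of C57BL/6 mice were profiled as single cells. The mice had been injected intraperitoneally with ID8-Trp53-/- cells, a mouse ovarian surface epithelial line without Trp53, and treatment started 7 days later and ended at an ascites volume near 3 mL. The control mice received DMSO and isotype antibody (IgG2a), the BTYNB mice received BTYNB, a small-molecule inhibitor of the RNA-binding protein IGF2BP1, with isotype antibody, the anti-PD-1 mice received DMSO and the antibody clone RMP1-14, and the combination mice received BTYNB and anti-PD-1. The labels gave 50 mg/kg for BTYNB and 100 ng per antibody dose, whereas the methods of the study stated other amounts. Injected mice were females, per the methods. Thus every group carried the same tumor line and received an antibody.

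Cells of the animals of a treatment were pooled, leaving 4 libraries, 1 per treatment and no replicate. Differences between libraries therefore had no replicate check, no p-value is given, and every interval below is a 95% interval for counting error only. The libraries held 78603888 to 114600397 unique molecular identifiers (UMIs, each marking 1 captured RNA molecule), and 42921 of 46342 cells passed quality limits, 6690 to 17369 per library. In all, 13 cell barcodes occurred in more than 1 library. The BTYNB library stood apart in depth, because its smallest deposited cell had 869 UMIs and the smallest cells of the other libraries had 3533 to 5115. For macrophages, and in part for monocytes, results are also given for cells with at least 5115 UMIs, called the common floor. Levels and ratios in other cell types, in subsets of macrophages and in lists of further genes have no common-floor value. The part of depth in them was not tested.

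Cells were sorted by their UMIs into gates. Macrophages had at least 5 UMIs of C1qa, C1qb and C1qc together. Monocytes had at least 3 of Lyz2, at least 1 of Ly6c2 and at most 1 of the C1q genes. NK cells had at least 2 of Ncr1, Klrb1c and Klre1 and at most 1 of the Cd3 genes, B cells at least 3 of Cd79a and Cd79b, and neutrophils at least 5 of S100a8 and S100a9 and at least 1 of Csf3r. T cells, tumor cells, type 1 and type 2 dendritic cells were gated for comparison, and a cell that met more than 1 gate was counted in none.

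Macrophages numbered 252 in control, 1437 in BTYNB, 404 with anti-PD-1 and 845 in combination. The other immune gates of the family were far smaller outside the BTYNB library. Monocytes numbered 13, 563, 12 and 30 in the same order, NK cells 8, 615, 8 and 32, B cells 9, 2954, 6 and 115, and neutrophils 5, 537, 2 and 3. In BTYNB the median was 1331 UMIs in neutrophils, 1831.5 in B cells and 2782 in NK cells. The smallest deposited cells of the other libraries had 3533 to 5115 UMIs, so cells as shallow as these could not appear there. The part of this in the cell counts was not tested. Treatments were compared only where both gates held at least 50 cells, so monocytes, NK cells and neutrophils could be described in BTYNB alone. Of 5 markers per gate that had not been used for gating, 4 or 5 were highest in the macrophages of each library and in the monocytes. All 5 were highest in the NK, B, T, neutrophil and type 1 dendritic gates. Only gates of at least 50 cells were ranked. In control and anti-PD-1 these were macrophages and tumor cells, so the check there did not separate macrophages from other leukocytes. In BTYNB, where monocytes were ranked too, Csf1r was higher in monocytes than in macrophages. The type 2 dendritic gate, defined by Cd209a, led in only 2 markers in BTYNB and 3 in combination, and the tumor gate led in 3 or 4, with Cdh1 or Epcam higher elsewhere.

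Promoter sequences are shown for the 3 activating receptors and for Fcgr2b, because the 4 genes had high levels in the same gates while Fcgr1 alone differed past the fold limit between treatments in macrophages. They were taken from RefSeq on build GRCm38.p6, where 5 of 5 members matched, and each covers the 150 bases before the annotated start, 5′ to 3′ on the strand of the gene. The counts of the files were made on another build, GRCm39. Capitals mark the gamma-activated site (GAS, letters TTCNNNGAA) and the PU.1 box (GAGGAA on either strand, thus also TTCCTC). The PU.1 letters are those bound by a factor of myeloid and B cells.
Fcgr1, chr3:96293970-96294119, minus strand: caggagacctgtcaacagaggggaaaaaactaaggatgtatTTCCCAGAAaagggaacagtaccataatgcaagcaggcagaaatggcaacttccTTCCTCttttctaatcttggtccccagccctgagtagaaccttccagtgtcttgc
Fcgr3, chr1:171059404-171059553, minus strand: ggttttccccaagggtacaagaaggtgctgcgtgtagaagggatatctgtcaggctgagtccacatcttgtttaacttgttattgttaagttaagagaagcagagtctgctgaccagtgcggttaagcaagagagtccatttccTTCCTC
Fcgr4, chr1:171018776-171018925, plus strand: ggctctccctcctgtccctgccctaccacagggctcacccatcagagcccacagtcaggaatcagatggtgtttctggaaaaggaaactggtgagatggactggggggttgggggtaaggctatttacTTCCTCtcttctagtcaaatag
Fcgr2b, chr1:170976072-170976221, minus strand: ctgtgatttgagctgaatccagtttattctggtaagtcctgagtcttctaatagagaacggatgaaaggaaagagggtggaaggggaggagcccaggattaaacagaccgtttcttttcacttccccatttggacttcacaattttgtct

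Each of the 3 activating receptor genes held the PU.1 letters, at bases -55 to -50 in Fcgr1, -6 to -1 in Fcgr3 and -22 to -17 in Fcgr4. RefSeq lists a second start for Fcgr3 close by, whose window holds the same letters at -15 to -10. Fcgr2b and Fcer1g held none in the whole 300-base window searched, which ran from 250 bases before to 50 after the start. The letters occurred in 28.3% of 32851 windows and at 31.3% of 27025 genes. The GAS letters were found at bases -109 to -101 of Fcgr1 and in no other member, against 8.3% of all windows and 9.55% of genes. These matches describe the letters in the windows and no binding was measured. Fcgr2b, Fcgr4, Fcgr3 and Fcer1g lie on chromosome 1, in that order along the chromosome, and Fcgr1 lies on chromosome 3.

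Levels are given in CPM, the UMIs of a gene as a share of the summed UMIs of its gate, in counts per 1e6 UMIs. They compare 1 gene between gates or libraries. Levels of different genes were not compared, since a UMI count was not put on a scale per length. Fcgr2b and Fcgr3 shared part of their sequence, since 9.58% of the 50-base words of the Fcgr3 transcripts also occurred in Fcgr2b and 2.92% of those of Fcgr2b in Fcgr3. None of the shared words lay in the last 300 bases, but how the authors assigned such reads is not given in the sources used here, so the split between these genes is uncertain to that extent. Fcgr2b also overlaps an antisense gene, Gm38204, which had 22 UMIs over all libraries.

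The BTYNB library held all gates and gave the distribution of the family over cell types. Fcer1g, the signaling chain, was highest in monocytes at 3086 CPM (3012 to 3161), followed by macrophages at 2697 CPM (2662 to 2733). Type 2 dendritic cells with 1733 CPM (1680 to 1788) and neutrophils with 1715 CPM (1632 to 1802) did not differ beyond their intervals, and NK cells followed with 1309 CPM (1262 to 1357). The gene thus reached the same order of magnitude in 5 kinds of myeloid and NK cells. Type 1 dendritic cells had 171 CPM (157 to 185), T cells 64.7 CPM (56.8 to 73.3), B cells 45.8 CPM (41.0 to 51.1) and tumor cells 4.35 CPM (3.79 to 4.96).

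Fcgr1 had the narrowest distribution. It stood at 258 CPM (237 to 280) in monocytes, 198 CPM (188 to 208) in macrophages and 52.4 CPM (43.5 to 62.5) in type 2 dendritic cells. No other gate exceeded 7.56 CPM (3.04 to 15.6), the level of neutrophils, which rested on 7 UMIs in 537 cells. B cells, type 1 dendritic cells, NK cells and T cells had 3.09, 1.74, 1.35 and 1.33 CPM with overlapping intervals, and 3 Fcgr1 UMIs were counted in 615 NK cells. The high-affinity receptor gene was thus counted mainly in monocytes, macrophages and Cd209a-gated cells.

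Fcgr3, the receptor of macrophages, NK cells and neutrophils, had 742 CPM (706 to 779) in monocytes and 718 CPM (700 to 736) in macrophages, which overlapped. Neutrophils followed with 465 CPM (423 to 512), type 2 dendritic cells with 176 CPM (159 to 193) and NK cells with 79.8 CPM (68.5 to 92.4). The remaining gates had 8.40 CPM or less. In NK cells Fcgr3 was 15.8-fold the level of T cells, whereas Fcgr4 was 1.42-fold, with 10 UMIs in NK cells and 12 in T cells.

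Fcgr4 was the only member with its highest level in macrophages beyond counting error, at 541 CPM (525 to 557) against 472 CPM (443 to 501) in monocytes. Neutrophils had 266 CPM (234 to 301), and NK cells had 4.51 CPM (2.16 to 8.29). Type 2 dendritic cells had 108 CPM (94.8 to 122), and type 1 dendritic, NK, B and T cells could not be separated at 3.18 to 6.08 CPM.

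Fcgr2b, the inhibitory receptor, had the same level within error in macrophages, 1255 CPM (1230 to 1279), and monocytes, 1222 CPM (1176 to 1270). Type 2 dendritic cells had 462 CPM (435 to 491). B cells had 154 CPM (145 to 164) and type 1 dendritic cells 133 CPM (121 to 146). These intervals overlapped, but the direct log2 ratio of type 1 dendritic over B cells was -0.21 (-0.37 to -0.06). Both gates lay above neutrophils at 59.4 CPM (44.7 to 77.3), NK cells at 18.5 CPM (13.3 to 25.1) and T cells at 10.1 CPM (7.13 to 13.8). In B cells Fcgr2b was 15.3-fold the T cell level, while Fcgr3 was 1.17-fold and Fcgr4 1.28-fold. It was therefore the only receptor of the 4 that stood apart from the T cell level in B cells beyond the counting intervals of both gates.

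**Figure D1:**
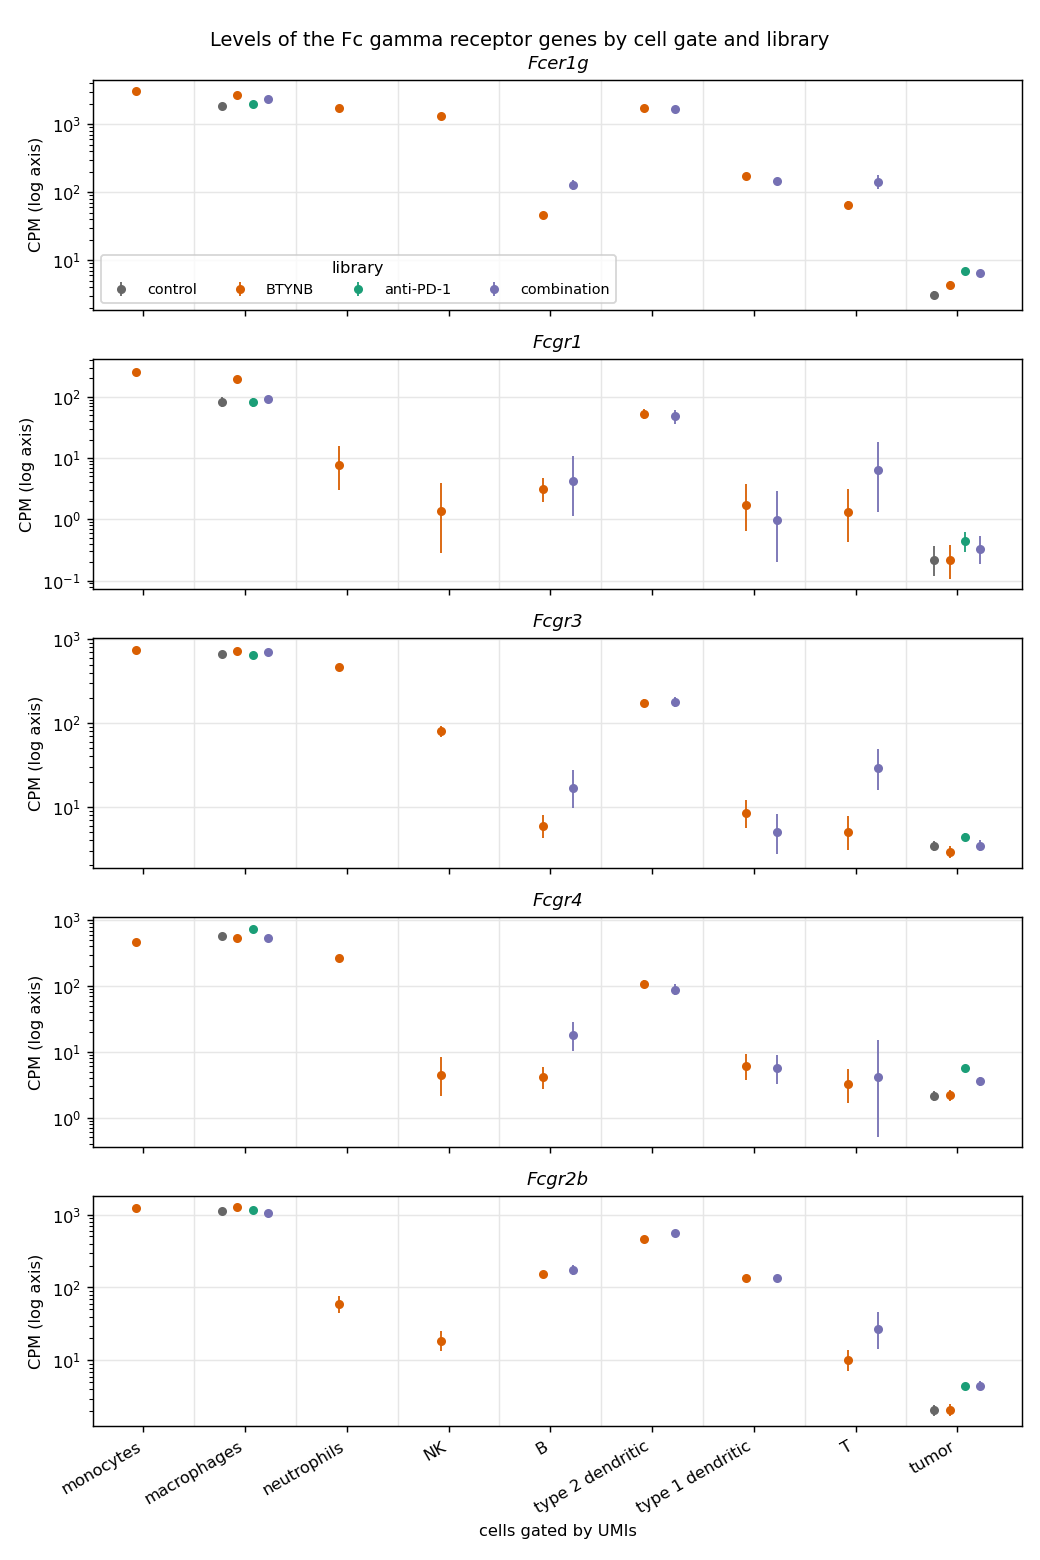
Level of each gene (CPM, logarithmic axis) in each gate of at least 50 cells, with points colored by library and bars showing exact Poisson 95% intervals. Fcgr1 stood at 258 CPM in BTYNB monocytes and 198 CPM in BTYNB macrophages and at 7.56 CPM or less in BTYNB neutrophils, NK, B and T cells, whereas Fcer1g exceeded 1300 CPM in all 5 of the leading gates.

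The activating to inhibitory ratio is the number of UMIs of Fcgr1, Fcgr3 and Fcgr4 together per UMI of Fcgr2b. It is read between gates and libraries, and its distance from 1 is not interpreted, because genes can differ in how many UMIs a transcript yields. In the BTYNB library it spanned a wide range. It was 12.4 (9.44 to 16.7) in neutrophils, 4.63 (3.29 to 6.66) in NK cells, 1.20 (1.14 to 1.27) in monocytes, 1.16 (1.13 to 1.19) in macrophages, 0.726 (0.661 to 0.797) in type 2 dendritic cells, 0.122 (0.091 to 0.161) in type 1 dendritic cells and 0.0848 (0.0678 to 0.105) in B cells. Monocytes and macrophages overlapped, and so did type 1 dendritic and B cells, while the other neighbours in this order did not. These ratios rest on few UMIs of 1 kind in 3 gates. NK cells had 41 Fcgr2b UMIs, at a level whose interval met that of T cells, although the direct log2 ratio of NK over T cells was 0.82 (0.20 to 1.55). Neutrophils had 55 Fcgr2b UMIs, and B cells had 93 activating UMIs, at levels whose intervals met those of T cells for each receptor. If such UMIs came from other cells, the NK and neutrophil ratios would be lower bounds and the B cell ratio an upper bound.

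The makeup of the activating UMIs differed as well. In NK cells 93.2% of them came from Fcgr3, against 63.0% in neutrophils, 50.4% in monocytes and 49.3% in macrophages. The Fcgr4 share was 36.0% in neutrophils, 37.1% in macrophages, 32.0% in monocytes and 5.26% in NK cells. Fcgr1 gave 17.5% of the activating UMIs in monocytes and 13.6% in macrophages, but 1.02% in neutrophils and 1.58% in NK cells. Fcer1g UMIs per activating UMI were 15.3 (13.2 to 17.8) in NK cells, 2.32 (2.12 to 2.54) in neutrophils, 2.10 (2.01 to 2.19) in monocytes and 1.85 (1.81 to 1.89) in macrophages, so NK cells stood apart from these 3 gates. Type 1 dendritic cells had 10.5 (7.99 to 14.1), which overlapped NK cells, and type 2 dendritic cells 5.17 (4.78 to 5.58).

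Tumor cells are not known to use these genes. Their members' levels were 0.216 to 6.89 CPM over the 4 libraries, and their ratio was 2.78 (2.28 to 3.42) in control, 2.52 (2.01 to 3.18) in BTYNB, 2.35 (2.05 to 2.68) with anti-PD-1 and 1.62 (1.36 to 1.92) in combination. These ratios were above those of macrophages in each library. The source of these UMIs was not tested.

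**Figure D2:**
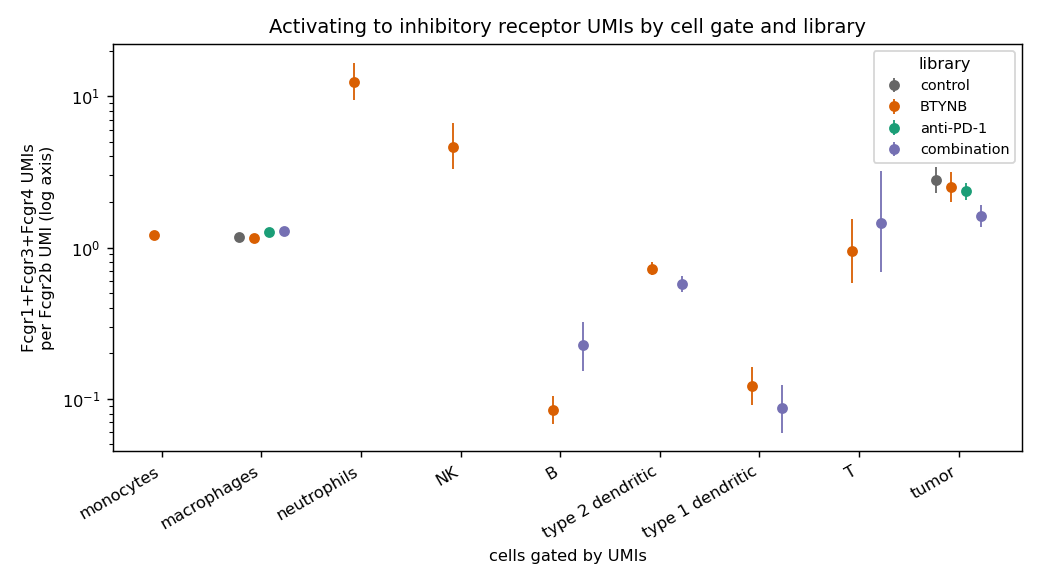
UMIs of Fcgr1, Fcgr3 and Fcgr4 per UMI of Fcgr2b (logarithmic axis) in gates of at least 50 cells, with points colored by library and bars showing exact binomial 95% intervals. BTYNB neutrophils had the highest ratio, 12.4, and BTYNB B cells the lowest, 0.0848, while macrophages of the 4 libraries lay between 1.16 and 1.28.

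The share of cells with a UMI was compared at equal depth. Each BTYNB cell was thinned to 1000 UMIs to remove the effect of depth, which left out 0 to 44 shallower cells per gate, since the median was 4750 UMIs in macrophages, 3500 in monocytes, 2782 in NK cells, 1331 in neutrophils, 1832 in B cells and 2177 in T cells. A Fcgr3 UMI was then found in 52.2% of monocytes (48.0 to 56.4%), 49.7% of macrophages (47.0 to 52.3%), 39.4% of neutrophils (35.0 to 43.8%) and 7.87% of NK cells (5.86 to 10.3%), against 0.357% of T cells (0.116 to 0.832%). Without thinning the shares were 87.0%, 89.2%, 50.7%, 21.5% and 1.13%.

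A Fcgr2b UMI was found in 15.4% of thinned B cells (14.1 to 16.8%) and 1.22% of thinned T cells (0.709 to 1.94%), or 26.5% and 2.33% before thinning. Fcgr2b was seen in 2.46% of thinned NK cells (1.38 to 4.02%) and 2.84% of thinned neutrophils (1.56 to 4.72%), and these intervals overlapped that of T cells. The neutrophil level of Fcgr2b in CPM did lie above that of T cells, and so did the NK level by the direct ratio given above. Free RNA from other cells can give a cell a UMI, so shares that overlap that of T cells are not read as expression.

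Activating and inhibitory receptor UMIs occurred together in the same macrophages. After thinning, 51.3% of BTYNB macrophages (48.7 to 53.9%) had at least 1 UMI of an activating receptor and of Fcgr2b, 22.5% only of an activating receptor, 15.2% only of Fcgr2b and 11.0% of neither. Both kinds together were found in 46.4% of control (40.1 to 52.8%), 50.0% of anti-PD-1 macrophages (45.02 to 54.98%) and 39.4% of combination macrophages (36.1 to 42.8%). In BTYNB monocytes the 4 shares were 50.1%, 21.8%, 13.5% and 14.6%. Neutrophils had an activating UMI alone in 51.5% (47.0 to 56.0%) and both kinds in 2.23% (1.12 to 3.96%), whereas B cells had Fcgr2b alone in 15.2% (13.9 to 16.5%) and both in 0.240% (0.0964 to 0.493%). The order of the libraries depended on the thinning depth. At 2000 UMIs both kinds were found in 72.6% of control (66.7 to 78.0%), 72.5% of anti-PD-1 (67.9 to 76.8%) and 70.3% of combination macrophages (67.1 to 73.4%), which overlapped. BTYNB macrophages had 78.6% (76.3 to 80.8%) there.

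Over whole libraries all 5 genes were highest with BTYNB and second with combination. Fcer1g had 52.5 CPM in control, 484 in BTYNB, 65.1 with anti-PD-1 and 312 in combination. Fcgr2b had 30.9, 186, 37.7 and 140 CPM in the same order, and Fcgr1 2.11, 28.5, 2.95 and 11.6 CPM. The BTYNB and combination libraries thus stood above both others for these genes, as they did for Fcgr3 with 19.6, 104, 22.5 and 83.5 CPM and for Fcgr4 with 15.0, 71.1, 25.3 and 60.8 CPM.

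A gene was counted as past the fold when its log2 ratio, with 1 CPM added to both levels, was at least 1 in either direction and it had at least 100 UMIs in 1 of the 2 libraries. In BTYNB over control 5 of 5 members were higher and past the fold, where 12.5% of 14551 genes were, with folds of 4.76 (4.47 to 5.07) for Fcgr4 to 13.5 (11.5 to 15.9) for Fcgr1. Combination over anti-PD-1 gave 5 of 5 higher, where 6.69% of 13799 genes were, from 2.40-fold (2.28 to 2.53) for Fcgr4 to 4.80-fold (4.66 to 4.94) for Fcer1g. Against BTYNB, combination was lower past the fold for Fcgr1 alone, at 0.405-fold (0.375 to 0.437), where 4.55% of 14487 genes were lower. Anti-PD-1 against control had 0 of 5 past the fold in either direction, where 2.82% of 13395 genes were, with folds of 1.15 to 1.69.

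In such sums over a library, more cells of a type and more RNA per cell cannot be told apart. The BTYNB library also held cells down to 869 UMIs, under the smallest cells of the others. The part of this in the sums and in the shares of cells was not tested. Gated macrophages made up 3.39% of control, 8.27% of BTYNB and 12.6% of combination cells, and 3.54% of those with anti-PD-1. They held 65.2 to 78.8% of each member's UMIs in the control, anti-PD-1 and combination libraries, and 43.1 to 58.7% in BTYNB, where monocytes held a further 12.99 to 18.4%. Tumor cells, 80.1% of control and 80.2% of anti-PD-1 cells, held 4.98 to 18.7% of the members' UMIs there and 0.362 to 3.86% in the other libraries. Type 2 dendritic cells held 7.85% of the Fcer1g UMIs of BTYNB, NK cells 5.64% and neutrophils 3.08%, whereas B cells held 5.53% of its Fcgr2b UMIs.

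**Figure D3:**
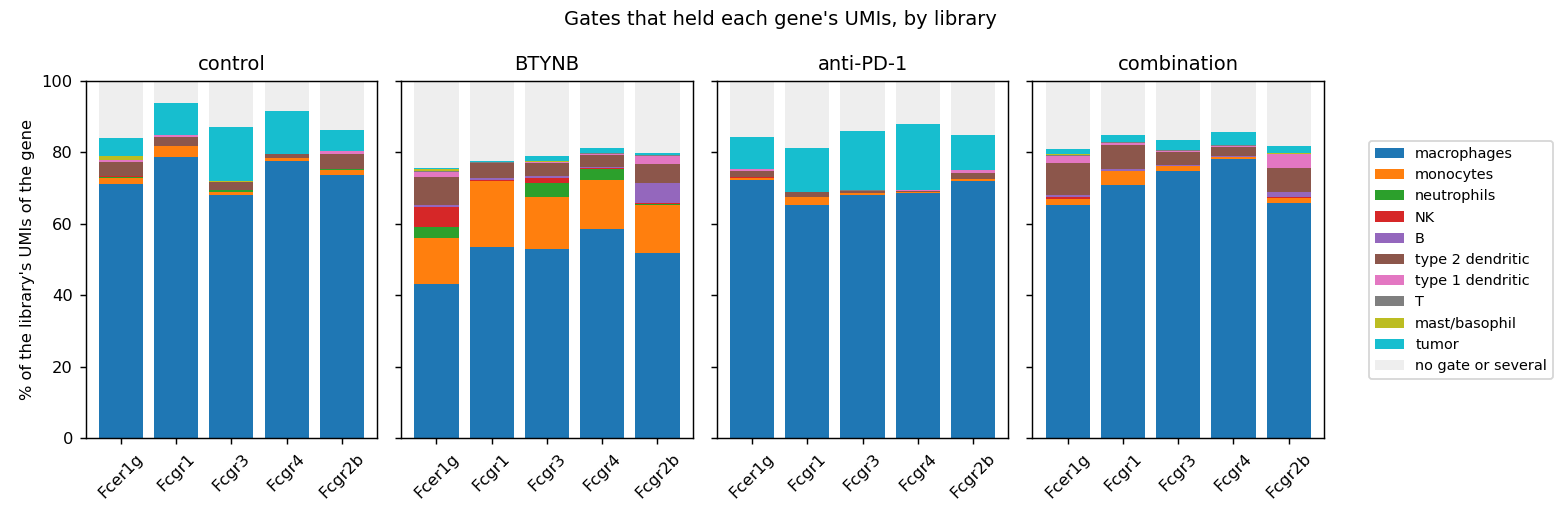
Share of each gene's UMIs (percent of all its UMIs in a library) that fell into each gate, stacked by color, with 1 panel per library. Macrophages held 65.2 to 78.8% in the control, anti-PD-1 and combination libraries and 43.1 to 58.7% in BTYNB, where monocytes, type 2 dendritic cells, neutrophils, NK cells and B cells are visible as further sources.

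Within macrophages the differences between treatments were smaller than over whole libraries for all 5 genes in BTYNB over control, and Fcgr1 had the largest of them, 2.40-fold (1.999 to 2.90) in place of 13.5-fold. Fcgr1 had 82.5 CPM (68.7 to 98.2) in control, 198 CPM (188 to 208) in BTYNB, 81.4 CPM (69.3 to 95) with anti-PD-1 and 92.7 CPM (85.5 to 100) in combination. Only BTYNB stood apart, and the other 3 intervals overlapped. The log2 ratio was 1.25 (0.999 to 1.53) for BTYNB over control and -1.08 (-1.23 to -0.96) for combination over BTYNB. It was -0.02 (-0.36 to 0.33) for anti-PD-1 alone over control and 0.19 (-0.07 to 0.45) for combination over anti-PD-1.

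Fcgr1 was the only member past the fold in macrophages. For BTYNB over control this made 1 of 5 members, where 6.21% of 7489 genes were past the fold in either direction, and for combination over BTYNB 1 of 5, where 2.39% of 7629 genes were. Anti-PD-1 against control had 0 of 5 with 2.53% of 3436 genes, and combination over anti-PD-1 had 0 of 5 with 5.2% of 7021 genes. Among cells at the common floor the Fcgr1 log2 ratios shrank to 0.91 for BTYNB over control and -0.79 for the combination over BTYNB, and neither was past the fold. There, anti-PD-1 macrophages had 48.8 CPM of Fcgr1, which gave -0.79 for anti-PD-1 alone over control and 0.91 for the combination over anti-PD-1. Its thinned share of cells was 8.33% (5.23 to 12.5%) in control, 19.8% (17.7 to 21.9%) in BTYNB, 7.67% (5.27 to 10.7%) with anti-PD-1 and 8.76% (6.94 to 10.9%) in combination, against 37.3%, 55.9%, 30.9% and 44.5% without thinning. In thinned tumor cells the Fcgr1 share was 0.0351 to 0.0527% over the 4 libraries.

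Monocyte markers moved with Fcgr1. The summed level of 5 monocyte markers not used in any gate, among them Ccr2, Plac8 and F13a1, was 1426 CPM in the macrophages of control, 3577 in BTYNB, 1110 with anti-PD-1 and 1565 in combination, and 0 of the 5 markers were at 0 in any of them. Macrophages with at least 1 Ly6c2 UMI made up 11.1%, 39.5%, 11.1% and 16.7%. Their Fcgr1 level was 100 CPM (58.3 to 160) in control, 295 CPM (275 to 316) in BTYNB, 121 CPM (79.8 to 176) with anti-PD-1 and 155 CPM (132 to 181) in combination. Macrophages without a Ly6c2 UMI had 80.3 CPM (65.9 to 96.8), 150 CPM (140 to 160), 76.4 CPM (64.0 to 90.4) and 81.1 CPM (73.8 to 89.0). BTYNB was thus highest in both subsets, while in the cells without Ly6c2 its log2 ratio against control was 0.89, under the fold. The part of monocyte-derived cells in the Fcgr1 difference was not tested.

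Fcer1g followed a weaker pattern of the same kind. It had 1853 CPM (1785 to 1923) in control, 2697 CPM (2662 to 2733) in BTYNB, 1993 CPM (1931 to 2056) with anti-PD-1 and 2312 CPM (2276 to 2349) in combination, and no 2 intervals overlapped. The log2 ratios were 0.54 (0.49 to 0.60) for BTYNB over control, 0.10 (0.03 to 0.18) for anti-PD-1 alone over control, 0.21 (0.16 to 0.27) for combination over anti-PD-1 and -0.22 (-0.25 to -0.19) for combination over BTYNB. At the common floor the difference of anti-PD-1 from control changed sign, to -0.36.

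Fcgr3 was nearly level, with 662 CPM (622 to 704) in control, 718 CPM (700 to 736) in BTYNB, 648 CPM (613 to 684) with anti-PD-1 and 708 CPM (688 to 728) in combination. Its highest and lowest library differed 1.11-fold, but at the common floor the anti-PD-1 level was 422 CPM and the others 685 to 708 CPM, with log2 ratios of -0.70 for anti-PD-1 alone over control and 0.75 for combination over anti-PD-1. Fcgr2b had 1130 CPM (1078 to 1185), 1255 CPM (1230 to 1279), 1151 CPM (1104 to 1199) and 1044 CPM (1019 to 1069) in the same order, a 1.20-fold range, with BTYNB highest and combination lowest beyond the intervals of all other libraries. At the common floor anti-PD-1 was instead lowest for Fcgr2b, with 657 CPM against 1044 CPM in combination, and the log2 ratio of combination over anti-PD-1 turned from -0.14 to 0.67.

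Fcgr4 had another order, with 575 CPM (537 to 614) in control, 541 CPM (525 to 557) in BTYNB, 737 CPM (699 to 776) with anti-PD-1 and 538 CPM (521 to 556) in combination. Anti-PD-1 alone stood apart. The log2 ratio of anti-PD-1 over control was 0.36 (0.24 to 0.48) and that of combination over anti-PD-1 -0.45 (-0.54 to -0.36). These values depended on the depth of the cells, because among macrophages at the common floor they turned to -0.30 and 0.25. Only 106 anti-PD-1 macrophages met that floor, and their level fell to 451 CPM for Fcgr4 and 1351 CPM for Fcer1g. The summed level of 5 tumor markers in all gated macrophages was 336 CPM with anti-PD-1, 226 CPM in control, 148 CPM in combination and 107 CPM in BTYNB, and its part in this was not tested.

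The activating to inhibitory ratio of macrophages varied little. It was 1.17 (1.09 to 1.25) in control, 1.16 (1.13 to 1.19) in BTYNB, 1.27 (1.21 to 1.35) with anti-PD-1 and 1.28 (1.24 to 1.32) in combination. The ratio of ratios, on a log2 scale, was -0.01 (-0.11 to 0.09) for BTYNB over control and 0.01 (-0.08 to 0.10) for combination over anti-PD-1. It was 0.13 (0.00 to 0.25) for anti-PD-1 alone over control and 0.14 (0.08 to 0.20) for combination over BTYNB. The 2 libraries with anti-PD-1 thus lay slightly above the 2 without it, by 0.13 over control and 0.14 over BTYNB. These intervals began at 0.00 and 0.08. The subsets described below did not all share this. Without Retnla control and anti-PD-1 both had 1.28, and with Timd4, Gata6 or Icam2 control had 1.46 and anti-PD-1 1.30. Combination lay above BTYNB in both of these subsets, with overlapping intervals in the latter. Although the ratios were close, their makeup was not, since Fcgr1 gave 6.25% of the activating UMIs in control, 13.6% in BTYNB, 5.55% with anti-PD-1 and 6.93% in combination, and Fcgr4 gave 43.6%, 37.1%, 50.3% and 40.2%.

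**Figure D4:**
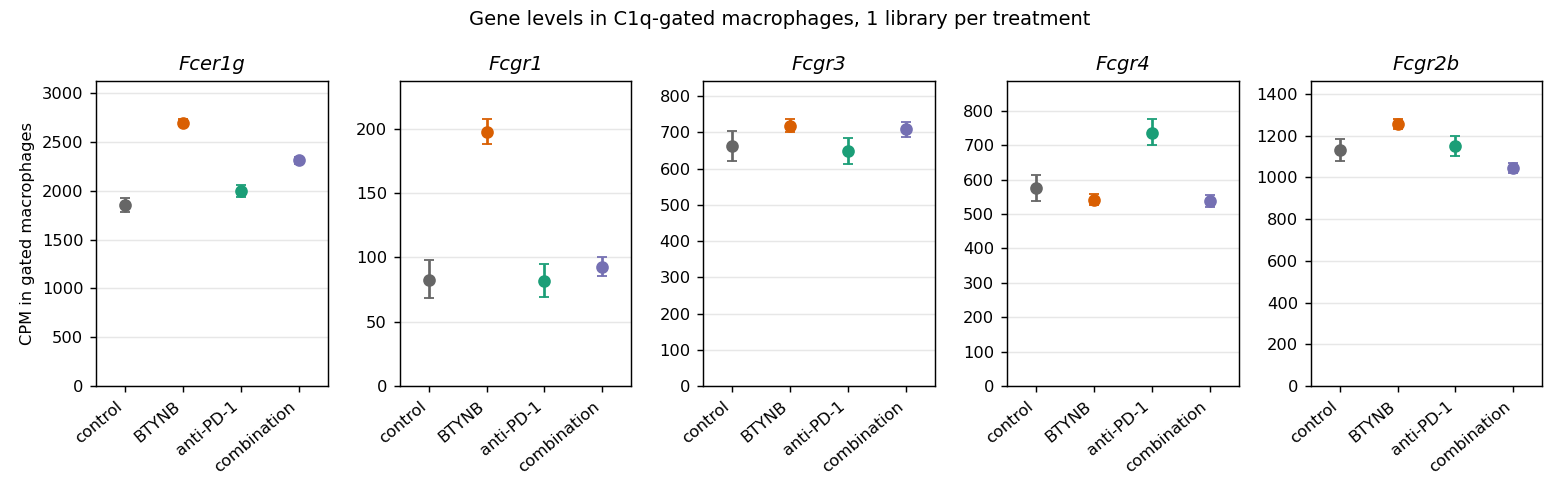
Level of each gene (CPM, linear axis from 0) in gated macrophages of the 4 libraries, 1 point per library with its exact Poisson 95% interval. Fcgr1 at 198 CPM in BTYNB stands above 81.4 to 92.7 CPM in the others, Fcgr4 is highest with anti-PD-1 at 737 CPM, and Fcgr3 stays between 648 and 718 CPM.

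The ratio also differed between subsets of macrophages. Cells with at least 1 UMI of Retnla, a gene of alternatively activated macrophages, had a ratio of 0.751 (0.638 to 0.882) in control, 0.814 (0.742 to 0.893) in BTYNB, 1.07 (0.808 to 1.41) with anti-PD-1 and 0.987 (0.927 to 1.05) in combination. Cells without it had 1.28 (1.19 to 1.37), 1.20 (1.17 to 1.23), 1.28 (1.21 to 1.36) and 1.41 (1.36 to 1.46). The ratio was thus lower in Retnla-positive cells in each library, beyond the intervals in 3 of 4, the exception being anti-PD-1 with 13 such cells. In control Fcgr4 was 378 CPM (300 to 469) with Retnla and 607 CPM (566 to 651) without, and Fcgr2b 1645 CPM (1479 to 1825) and 1045 CPM (991 to 1102). Fcgr3 went the other way, with 806 CPM (691 to 935) and 638 CPM (595 to 683) in control, and it was higher in Retnla-positive cells in 4 of 4 libraries.

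Fcgr1 was lower in Retnla-positive macrophages in BTYNB, 51.5 CPM (36.0 to 71.2) against 211 CPM (201 to 222), and in combination, 50.0 CPM (39.4 to 62.5) against 106 CPM (96.8 to 114.9). In Retnla-positive cells the level was also 50.7 CPM (25.3 to 90.7) in control, so the higher level in BTYNB was not seen in this subset. Anti-PD-1 had 0 Fcgr1 UMIs in its 13 Retnla-positive macrophages, with an upper interval of 55.6 CPM. Retnla-positive cells made up 22.0% of combination, 15.1% of control, 6.26% of BTYNB and 3.22% of anti-PD-1 macrophages. Their median was 7585 UMIs per cell in BTYNB, against 4612 in cells without Retnla, and 7621.5 against 7018 in combination. In control the medians were 5432 and 5437.5. The part of depth in the Fcgr1 difference between these subsets was not tested.

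Timd4, Gata6 and Icam2 mark resident large peritoneal macrophages. Macrophages with a UMI of any of them had a ratio of 1.46 (1.29 to 1.64) in control, 1.37 (1.28 to 1.48) in BTYNB, 1.30 (1.16 to 1.46) with anti-PD-1 and 1.43 (1.36 to 1.51) in combination, against 1.06 (0.982 to 1.15), 1.13 (1.10 to 1.16), 1.26 (1.19 to 1.35) and 1.19 (1.15 to 1.24) in the rest. The ratio was higher in the marked cells in 4 of 4 libraries, and the intervals were apart in all but anti-PD-1. Fcgr2b was lower in the marked cells of each library, with 880 against 1262 CPM in control, 1027 against 1295 in BTYNB, 778 against 1352 with anti-PD-1 and 974 against 1090 in combination, and so was Fcer1g, with 1385 against 2099 CPM in control as the example.

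In BTYNB and combination the ratio also rose with the level of C1q, the complement component by which these cells were gated. In BTYNB it was 0.890 (0.842 to 0.941) in macrophages under 3000 CPM of C1qa, C1qb and C1qc together, 1.20 (1.17 to 1.24) from 3000 to under 10000 CPM and 1.65 (1.52 to 1.80) from 10000 CPM. Combination gave 0.942 (0.864 to 1.03), 1.31 (1.26 to 1.36) and 1.502 (1.39 to 1.62). Fcgr4 rose across the bands, from 312 to 571 and 972 CPM in BTYNB and from 243 to 542 and 934 CPM in combination. With anti-PD-1 the 3 ratios overlapped, at 1.22 (1.01 to 1.48), 1.25 (1.17 to 1.33) and 1.41 (1.23 to 1.62), and in control the upper bands did, at 0.745 (0.620 to 0.893), 1.24 (1.15 to 1.33) and 1.33 (1.10 to 1.59). Fcgr2b was 1300, 1242 and 1219 CPM across the bands in BTYNB, whereas it rose from 866 to 1144 and 1720 CPM in control, from 383 to 1384 and 1750 CPM with anti-PD-1 and from 923 to 1030 and 1287 CPM in combination. In control and anti-PD-1 Fcgr4 rose from 181 to 613 and 1292 CPM and from 211 to 868 and 1324 CPM. Their upper bands held 22 and 46 cells. With anti-PD-1 Fcer1g rose too, from 836 to 2282 and 3277 CPM, and Fcgr3 from 221 to 767 and 1046 CPM. The median UMIs per cell were 6168, 4204 and 4061.5 across these anti-PD-1 bands. Fcgr1 in the upper band was 181 CPM (113 to 274) in control and 176 CPM (146 to 209) in BTYNB, which overlapped. In the lower bands Fcgr1 was 46.0 and 82.4 CPM in control and 181 and 207 CPM in BTYNB.

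**Figure D5:**
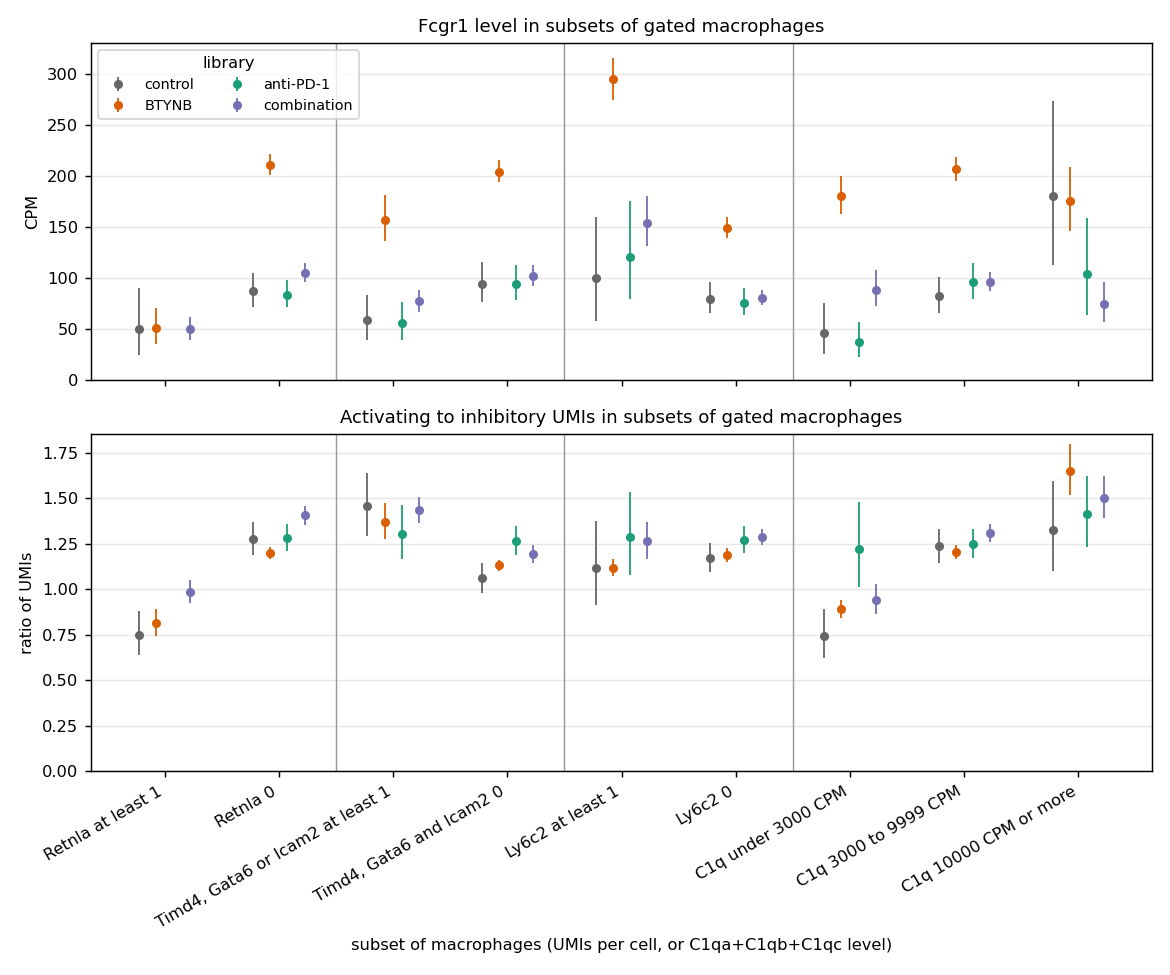
Fcgr1 level (CPM, top) and activating to inhibitory ratio of UMIs (bottom) in subsets of gated macrophages, with points colored by library, exact 95% counting intervals and subsets of at least 20 cells shown. Fcgr1 is highest in BTYNB macrophages with Ly6c2, 295 CPM, and close to 50 CPM in Retnla-positive cells of control, BTYNB and combination, where the ratio is also lower than in cells without Retnla.

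Immune gates other than macrophages could be compared only between combination and BTYNB. In type 2 dendritic cells 0 of 5 members were past the fold, where 0.769% of 3639 genes were. Fcgr2b was 550 CPM (510 to 593) in combination and 462 CPM (435 to 491) in BTYNB, and the ratio 0.573 (0.505 to 0.649) and 0.726 (0.661 to 0.797), a log2 ratio of ratios of -0.34 (-0.56 to -0.12). In type 1 dendritic cells Fcgr2b was 133 CPM in both libraries, and their ratios of 0.0868 (0.0596 to 0.123) and 0.122 (0.0907 to 0.161) overlapped. There, Fcer1g and Fcgr2b alone had 100 UMIs in 1 of the libraries, and 0 of these 2 were past the fold, where 0.908% of 4734 genes were.

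In B cells Fcgr2b was 173 CPM (147 to 201) in combination and 154 CPM (145 to 164) in BTYNB, which overlapped. Fcer1g had 128 CPM (107 to 153) and 45.8 CPM (41.0 to 51.1), a log2 ratio of 1.47 (1.18 to 1.79). It was the 1 member past the fold among 2 that were tested, where 18.5% of 7781 genes were. T cells, which are not known to use this chain in general, also had more Fcer1g in combination, 143 CPM (111 to 181), than in BTYNB, 64.7 CPM (56.8 to 73.3). That log2 ratio was 1.13 (0.74 to 1.54), and it was past the fold for 1 of 1 member tested, where 21.0% of 5624 genes were. The ratio in B cells was 0.226 (0.153 to 0.324) in combination and 0.0848 (0.0678 to 0.105) in BTYNB, with 37 and 93 activating UMIs. In T cells Fcgr3 and Fcgr2b, with 14 and 13 UMIs in combination, were at 29.4 and 27.3 CPM there and at 5.04 and 10.1 CPM in BTYNB. The part of stray UMIs in these differences was not tested.

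In the tumor gate Fcgr4 was higher with anti-PD-1 than in control, at 5.60 CPM (5.06 to 6.17) against 2.10 CPM (1.77 to 2.49). It was the only member past the fold of 4 tested, where 3.33% of 12716 genes were. At such low levels this call depended on the added 1 CPM. Without it the folds were 2.66 (2.18 to 3.26) for Fcgr4, 2.25 (1.90 to 2.67) for Fcer1g, 2.14 (1.74 to 2.64) for Fcgr2b and 1.27 (1.07 to 1.52) for Fcgr3. Fcer1g was 6.89 CPM with anti-PD-1, 3.06 in control, 4.35 in BTYNB and 6.49 in combination.

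The signaling genes downstream of the receptors were followed in macrophages as a list of 18, among them Tyrobp (a second ITAM adapter), the kinases Syk, Lyn, Fgr and Btk, and the exchange factors Vav1 and Vav3. For BTYNB over control 18 of 18 had a log2 ratio above 0, 0 were past the fold, and the median was 0.33. Over all 7489 genes the median was -0.01, and 3657 were above 0. Syk had 242 CPM in BTYNB and 142 CPM in control, a log2 ratio of 0.76 (0.56 to 0.98), and Tyrobp 1205 and 1039 CPM, a log2 ratio of 0.21 (0.14 to 0.29). Of 16 tested in anti-PD-1 over control, 4 were above 0 and 0 past the fold, with a median of -0.21. Over all 3436 genes the median was -0.04, and 1570 were above 0.

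Combination over anti-PD-1 gave 15 of 17 above 0, a median of 0.35 against 0.00 over all genes, and 1 gene past the fold, Vav3 with 155 against 67.3 CPM and a log2 ratio of 1.19 (0.94 to 1.48). Combination over BTYNB gave 2 of 18 above 0, 0 past the fold and a median of -0.22, against -0.03. Over all genes, 3538 of 7021 were above 0 for combination over anti-PD-1 and 3414 of 7629 for combination over BTYNB. These comparisons share libraries with each other, so they are not independent.

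A list of 10 inhibitors of this pathway holds Inpp5d, the phosphatase used by FcγRIIb, Ptpn6, which encodes SHP-1, and ubiquitin ligases and adapters. For BTYNB over control the median was 0.42 with 9 of 10 above 0, against -0.01 over all genes. For anti-PD-1 alone over control it was -0.24 with 1 of 5 tested above 0, against -0.04. Combination over anti-PD-1 gave 0.35 with 9 of 10, against 0.00, and combination over BTYNB -0.26 with 2 of 10, against -0.03. The counts above 0 over all genes are those given for the signaling genes. The only gene past the fold was Ptpn22, a tyrosine phosphatase, for combination over anti-PD-1, with 45.9 against 17.7 CPM and a log2 ratio of 1.33 (0.87 to 1.92). Inpp5d had 107 CPM in control, 194 in BTYNB, 67.3 with anti-PD-1 and 123 in combination.

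Among 8 other receptors that pair with the gamma chain, 4 were tested in BTYNB over control. Clec4d, a lectin receptor for mycobacterial glycolipid, was lower past the fold with 66.0 CPM in BTYNB and 206 CPM in control, a log2 ratio of -1.63 (-1.84 to -1.43), and it was higher past the fold in combination over BTYNB at 159 CPM and 1.26 (1.12 to 1.43). Over all genes, 283 of 7489 were lower past the fold in BTYNB over control and 119 of 7629 higher in combination over BTYNB. In anti-PD-1 over control 0 of 3 and in combination over anti-PD-1 0 of 4 were past the fold. Of 11 further Fc receptor genes only 2 at most were tested, and 0 were past the fold in any of the 4 comparisons. Fcgrt, the neonatal Fc receptor that recycles IgG, had 101 CPM in control, 77.0 in BTYNB, 109 with anti-PD-1 and 94.7 in combination.

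Responses known to act on Fc receptor genes were described in the same cells. The list of 12 interferon-gamma response genes had a median of 0.61 for anti-PD-1 alone over control, with 9 of 10 tested above 0 and 3 higher past the fold, Cxcl9 (119 against 19.6 CPM, 2.54), Iigp1 (312 against 147 CPM, 1.08) and Irgm2 (102 against 50.4 CPM, 1.005). Over all 3436 genes of that comparison the median was -0.04, with 1570 above 0 and 66 higher past the fold. Fcgr1 had a log2 ratio of -0.02 in it. In BTYNB over control, where Fcgr1 was past the fold, the list's median was 0.29 with 7 of 11 above 0, and Cxcl9 was its only gene past the fold, with 52.1 against 19.6 CPM and a log2 ratio of 1.36 (0.87 to 1.99). Combination gave a median of -0.37 against anti-PD-1, with Irgm2 lower past the fold, and 0.11 against BTYNB, with 0 past the fold. Over all genes the median was -0.01 for BTYNB over control, 0.00 for combination over anti-PD-1 and -0.03 for combination over BTYNB. The shares of all genes past the fold are those given above for macrophages.

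The list of 10 interleukin-4 response genes was mixed. For combination over anti-PD-1, 151 of all 7021 genes were higher past the fold and 214 lower. The list's median there was 1.55 over 7 tested genes, 5 of them higher past the fold and 1 lower. Retnla led with 2077 against 139 CPM and a log2 ratio of 3.90 (3.73 to 4.08), and Arg1 was the lower gene with 1369 against 2883 CPM. BTYNB over control had 2 higher and 2 lower past the fold of 7, led by Chil3 with 109 against 24.2 CPM and 2.12 (1.69 to 2.68). Over all 7489 genes of that comparison 182 were higher and 283 lower past the fold. Anti-PD-1 against control had 2 lower of 4, where 21 of 3436 genes were lower. Combination over BTYNB had 2 higher and 1 lower of 7, where 119 of 7629 genes were higher and 63 lower. In the 15 genes of actin dynamics, phagosome and oxidase used for uptake, 0 of 14 tested were past the fold in each comparison. The medians were 0.11 for BTYNB over control, -0.47 for anti-PD-1 alone over control, 0.17 for combination over anti-PD-1 and -0.11 for combination over BTYNB. Over all genes they were -0.01, -0.04, 0.00 and -0.03 in the same order.

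Genes with the most similar pattern were sought over the 19 combinations of gate and library with at least 50 cells, as Pearson's r of log2(CPM + 10) among 13579 genes. These points share libraries and depth, so r is a description. Fcer1g was closest to Tyrobp (r = 0.981) and Itgam (0.967), the latter encoding the CD11b integrin chain. Fcgr1 was closest to Clec4a3 (0.992), Ms4a6d (0.989) and Clec4a1 (0.988). Fcgr4 was closest to Klra2 (0.983), Csf1r (0.981), the receptor for the macrophage growth factor CSF-1, and Emilin2 (0.975).

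Fcgr3 was closest to Itgam (0.974), Xdh (0.973) and Emilin2 (0.968), and Fcgr2b to Ly86 (0.972), which encodes a partner of the B cell and myeloid receptor RP105, Ctsc (0.966) and Ms4a6c (0.962). Among the members themselves Fcgr3 and Fcgr4 were most alike (0.962), followed by Fcer1g and Fcgr3 (0.923). The pair with the lowest value was Fcer1g with Fcgr1 (0.801), and Fcgr3 with Fcgr2b (0.805) was close to it.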

How the data were processed

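The authors captured cells on the BD Rhapsody HT system, counted UMIs per gene and cell with the BD Rhapsody pipeline on build GRCm39 (per the submitters' processing notes) and deposited 1 matrix of raw UMI counts per library. Feature and barcode files named its rows and columns. The aligner settings are not given in the sources used here.

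Members and gene lists were chosen with earlier results of these data known. Cells with under 200 genes or over 33% mitochondrial UMIs were removed, as were the 5% of cells with the highest scrublet score (scanpy 1.11.5) in each library. The markers behind the gates are given above. UMIs were summed per gate and library. Intervals are exact Poisson (levels) and exact Clopper-Pearson binomial (shares, ratios and log2 ratios) at 95%. Log2 ratios used a pseudocount of 1 CPM and genes with at least 100 UMIs in 1 of 2 libraries. No test was possible with 1 library per group. Named genes were the members, at most 4 list genes past the fold per list and comparison, further list genes added for their role after their values were seen (Syk, Tyrobp, Inpp5d and Fcgrt), and the leading genes among the 5 of highest correlation per member. The scripts were tested on simulated data. Python 3.11.15, numpy 2.4.6, scipy 1.17.1 and pandas 2.3.3 were used. Promoters were read from RefSeq on GRCm38.p6, without converting coordinates. Protein sequences were not used here, and some genes of the lists are not reported here by name.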

Additional observations from a re-analysis of the deposited data

How the results depend on the processing

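Alternatives changed doublet removal, cells of several gates, a common UMI floor, gate strictness, weighting by cell, free RNA, scaling, quality limits, the pseudocount, the thinning depth and the filter on low counts. No paired analysis was possible because each group was 1 library. At the common UMI floor the activating to inhibitory ratio moved to 1.11 in BTYNB monocytes and 1.40 in anti-PD-1 macrophages, and with doubled gate limits to 1.19 in BTYNB macrophages. The other 32 of 35 planned values of this kind stayed within their counting intervals. Over planned and added settings together, 119 of 235 levels and 73 of 260 log2 ratios between libraries moved out of theirs. Subsets chosen after seeing the data moved the BTYNB ratio to 1.12 in macrophages with Ly6c2 and to 0.890, 1.20 and 1.65 across the C1q bands, and the combination ratio to 0.942 and 1.502 in the lowest and highest band. Of 260 log2 ratios between libraries 31 changed sign, none of them past the fold in the main analysis. In macrophages under 3000 CPM of C1q, Fcgr2b for combination over anti-PD-1 turned from -0.14 to 1.27, past the fold. Fcer1g, Fcgr1 and Fcgr3 of that comparison also passed the fold there, at 1.16, 1.23 and 1.28. The Fcgr1 difference in macrophages fell under the fold at the common floor (0.91 for BTYNB against control, -0.79 for combination against BTYNB) and in cells without Ly6c2 (0.89 and -0.88). It stayed past the fold when macrophages were thinned to 4000 UMIs and gated again, at 1.45 and -1.08. A filter of 20 UMIs in place of 100 raised the genes past the fold in macrophages from 465 to 1221, from 87 to 459, from 365 to 1023 and from 182 to 393, in the order BTYNB and anti-PD-1 against control, then combination against anti-PD-1 and against BTYNB. Scaling by the median of ratios shifted all genes by at most 0.09. With 1 pooled library per treatment, animals could not be compared, and gates under 50 cells allowed no contrast.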

Other observations

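Gates too small for a comparison gave these values. The mast and basophil gate (at least 3 UMIs of Cpa3, Mcpt8, Ms4a2 and Gata2) held 19 BTYNB cells, with 1228 CPM of Fcer1g (1077 to 1393), the chain that also carries signals of the IgE receptor. Their activating UMIs were 32 of Fcgr3 and 0 of Fcgr1 and Fcgr4, and 22 UMIs of Fcgr2b were counted. In combination the gate held 5 cells with 1658 CPM of Fcer1g (1306 to 2075) and in control 4 cells with 1908 CPM (1375 to 2579), whereas 3 cells of the anti-PD-1 library had 95.1 CPM (11.5 to 343), from 2 UMIs.

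Gated monocytes outside BTYNB were too few for a comparison with the 563 BTYNB monocytes at 3086 CPM of Fcer1g. Their Fcer1g levels were 644 CPM (501 to 815) in 13 control cells and 462 CPM (325 to 636) in 12 anti-PD-1 cells. In 30 combination cells the level was 1558 CPM (1401 to 1727). These cells had medians of 6589, 6575.5 and 6461.5 UMIs in the same order, against 3500 in BTYNB monocytes. In control, anti-PD-1 and combination, 11, 9 and 52 further cells met the monocyte gate together with another gate and were left out. NK cells had Fcer1g UMIs in each library, 15 in 8 cells of the control library, 14 in 8 cells of the anti-PD-1 library and 150 in 32 cells of the combination library, while Fcgr3 gave 0, 2 and 5 UMIs.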
